A study of Mus musculus with 4 samples.

Results

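The genes described here were the WNT ligands and the proteins that secrete, receive, amplify, block and relay them. They were chosen by gene symbol and comprised the Wnt ligands, Porcn and Wls, the Frizzled receptors with Lrp5 and Lrp6, the R-spondins with Lgr4 to Lgr6, Rnf43 and Znrf3, the secreted antagonists of the Sfrp and Dkk families with Dkkl1 and Wif1, the Shisa family, Ctnnb1, Apc, Axin1 and Axin2, and the TCF/LEF factors. Of the 54920 genes listed, 68 matched, and 60 of these were among the 23952 genes with enough reads to be tested. The 8 members not tested were Wnt1, Wnt8a, Wnt10a, Wnt10b, Wnt16, Rspo3, Dkk1 and Dkk4.

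RNA-seq had been performed on ID4-EGFP+ cells sorted by flow cytometry from testes of mice at postnatal day 8, with 2 control and 2 Cnot3-cKO libraries. Both groups carried floxed Cnot3 alleles and the Id4-eGfp reporter and had received 4-OHT from day 1 to day 3, and Cnot3-cKO mice also carried Ddx4-creER, a tamoxifen-inducible Cre driven by a germ cell promoter. The sample labels call the controls wild-type, whereas the series' design text gives them the floxed alleles without the Cre transgene, so Cre itself was absent from the controls. Counted reads totalled 40957899 and 43378493 in control replicates 1 and 2 and 22192964 and 28019626 in Cnot3-cKO replicates 1 and 2, the order kept for all values given per library. Levels are given in CPM, that is, counts relative to the TMM-scaled total of the library, and a floor of 3 counts corresponded to 0.0745, 0.0713, 0.132 and 0.105 CPM. A figure legend of the study calls its replicates biological but counts another number of them than the libraries here, and neither the labels nor the methods state whether animals were pooled or which animals a library came from. P-values therefore measure the spread between these samples, of which the technical part is not known. For any single gene the smallest p of a two-sided exact permutation test on these libraries is 0.333, and each adjusted p below therefore depends on the spread modelled across all genes. Groups that do not overlap reach only that permutation p, so their separation alone is weak evidence. The share of all tested genes whose groups did not overlap was not counted.

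WNT ligands are lipid-modified glycoproteins that bind Frizzled receptors, and with the co-receptors LRP5 and LRP6 they stop the APC and AXIN complex from degrading beta-catenin, which then acts with TCF/LEF factors on target genes. R-spondins strengthen the response by keeping the ubiquitin ligases RNF43 and ZNRF3 from removing Frizzled, while SFRP, DKK and WIF1 proteins block ligand or co-receptor. In the mouse testis, WNT6 made by Sertoli cells and Axin2 in undifferentiated spermatogonia are known parts of this signalling, and SHISA6 is known as an inhibitor of it in a subset of spermatogonial stem cells.

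Cnot3 itself, the deleted gene, stood at 58.6 and 50.2 CPM in the control libraries and at 19.2 and 19.9 CPM in the Cnot3-cKO libraries. Both Cnot3-cKO libraries lay below both controls, with a log2 fold change of -1.48 ± 0.13 (SE, 2 libraries per group, edgeR quasi-likelihood test, Benjamini-Hochberg adjusted p = 1.48e-05). Reads remained at Cnot3 in both Cnot3-cKO libraries (435 and 571 counts). Its annotated exons share 433 bases with a gene on the opposite strand and 86 bases with one on the same strand, and whether the counting used strand is not stated.

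The germ cell label was checked against marker lists. The 12 pan-germ cell genes summed to 7324 and 7842 CPM in controls and to 6357 and 6744 CPM in Cnot3-cKO libraries, with Dazl the most abundant per kilobase of exon. Id4, whose reporter was used for the sort, stood at 20.6 and 19.7 CPM in controls and at 36.3 and 46.3 CPM in Cnot3-cKO libraries. Markers of somatic cells were present in every library. The 15 listed Sertoli cell genes summed to 445 and 457 CPM in controls and to 1358 and 1357 CPM in Cnot3-cKO libraries. Leydig cell genes summed to 368 and 322 CPM against 831 and 896 CPM, and macrophage genes to 226 and 137 CPM against 495 and 409 CPM. The sorted libraries thus held germ cell RNA together with RNA of somatic marker genes, and the share of the latter was larger in both Cnot3-cKO libraries. In bulk RNA, more or fewer cells of a type and more or less RNA per cell cannot be told apart.

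A gene was called when its adjusted p lay below 0.01 and its fold change exceeded 2, the study's thresholds. Of the 60 tested members, 4 were called higher in the Cnot3-cKO libraries (Wnt6, Wnt5a, Wls and Lgr6), where 4.03% of all tested genes met this rule. Another 5 were called lower (Dkk3, Fzd10, Rspo1, Fzd2 and Rspo4), where 0.735% of all tested genes did. These are 6.67% and 8.33% of the members tested. With TMM scaling, 965 of all tested genes were called higher and 176 lower. With upper quartile scaling the split of members was 4 higher and 3 lower, and that of all tested genes 941 and 139. With scaling to the pan-germ cell genes it was 6 higher and 2 lower, and that of all tested genes 1433 and 76. In the TMM-scaled edgeR fit no further member passed the adjusted p at a smaller fold change. DESeq2 passed 8 lower at any fold change, among them Sfrp1, Axin1 and Apc, and its share of all genes there was not counted. In the TMM-scaled edgeR fit, 6.21% of all tested genes passed higher and 4.7% passed lower at any fold change. The median log2 fold change was -0.10 over the members and 0.01 over all tested genes. Together the members took 0.230% and 0.219% of all counts in controls, against 0.210% and 0.209% in Cnot3-cKO libraries.

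Of the 51 members not called, 24 had a 95% confidence interval of the log2 fold change that lay within -1 and 1. For the other 27 the interval reached further, so that a change of 2-fold was neither shown nor bounded away. Their estimates ran from -0.90 to 1.44. At the less strict adjusted p of 0.05, 5 of the 51 members not called would lie above and 5 below control at any fold change. The share of all tested genes was not counted at that threshold. Levels per kilobase of exon ranged widely in controls. Among tested members, 8 stood at 10 CPM per kilobase or more (Ctnnb1, Axin1, Tcf7, Apc, Fzd3, Lrp6, Sfrp2 and Lgr4), 25 at 1 to under 10, and 27 under 1. The 9 called members all fell among those 25.

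**Figure D1:**
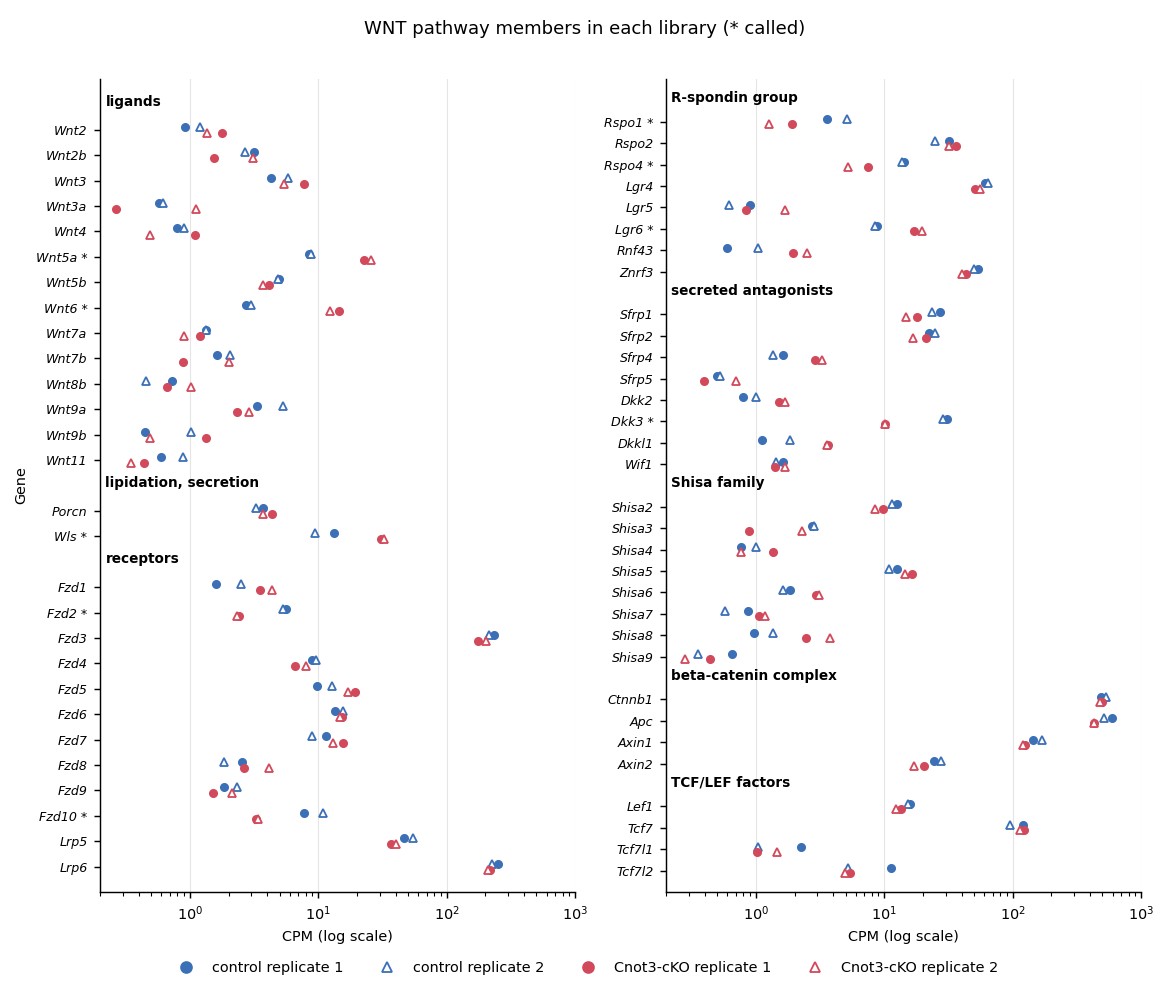
Level of each of the 60 tested members in the 4 libraries, in CPM on a log scale, grouped by role. Blue symbols are control and red symbols Cnot3-cKO libraries, circles are replicate 1 and triangles replicate 2, and an asterisk marks a called gene. For Wnt6, Wnt5a, Wls and Lgr6 both red symbols lie to the right of both blue ones, and for Dkk3, Fzd10, Fzd2, Rspo1 and Rspo4 to the left.

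**Figure D2:**
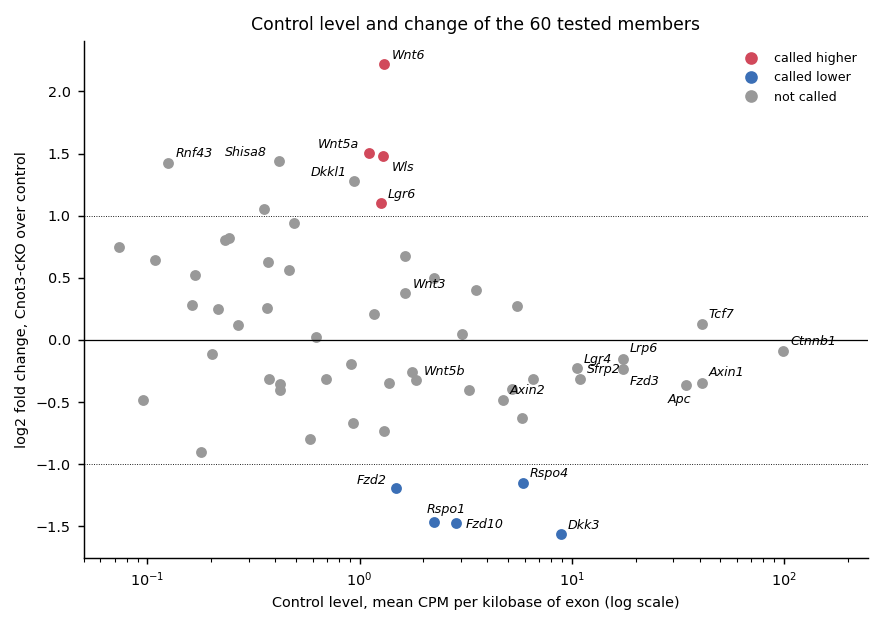
Control level of each tested member (mean of 2 control libraries, CPM per kilobase of exon, log scale) against its log2 fold change, Cnot3-cKO over control. Dotted lines mark a fold change of 2 in either direction. The called members, in colour, lie between 1.10 (Wnt5a) and 8.88 CPM per kilobase (Dkk3) in controls.

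Among the 19 Wnt ligands, 14 were tested and 2 were called higher. Wnt6, the Sertoli cell ligand, stood at 2.76 and 2.97 CPM in controls and at 14.4 and 12.3 CPM in Cnot3-cKO libraries. Both Cnot3-cKO libraries were far above both controls, which were close to each other. The log2 fold change of 2.22 ± 0.22 (SE, 2 libraries per group, edgeR quasi-likelihood test, Benjamini-Hochberg adjusted p = 3.11e-05) was the largest of any tested member and corresponds to 4.66-fold. Wnt5a, a ligand known mainly for signalling that does not run through beta-catenin, stood at 8.44 and 8.79 CPM in controls and at 22.9 and 26.0 CPM in Cnot3-cKO libraries. Again the groups did not overlap, and the log2 fold change was 1.5 ± 0.16 (SE, edgeR quasi-likelihood test, Benjamini-Hochberg adjusted p = 7.00e-05), or 2.84-fold. Wnt6 lies at chr1:74771892-74785322 and Wnt5a at chr14:28504750-28527448, both on the plus strand of GRCm38. Of the annotated exon bases of Wnt5a, 358 are shared with a gene on the opposite strand (Gm2670), and Wnt6 shares none.

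Per kilobase of exon, Wnt5b (1.85 CPM) and Wnt3 (1.64 CPM) were the highest ligands in controls, ahead of Wnt6 (1.31 CPM) and Wnt5a (1.10 CPM). In Cnot3-cKO libraries Wnt6 (6.10 CPM per kilobase) and Wnt5a (3.12 CPM per kilobase) were above Wnt3 (2.14 CPM per kilobase) and Wnt5b (1.48 CPM per kilobase). Wnt5b stood at 4.97 and 4.85 CPM in controls and at 4.15 and 3.70 CPM in Cnot3-cKO libraries, a log2 fold change of -0.32 with an interval from -0.86 to 0.21. Wnt3 stood at 4.27 and 5.82 CPM against 7.72 and 5.45 CPM, so that the groups overlapped, with a log2 fold change of 0.38 and an interval from -0.18 to 0.94. The order of ligands per kilobase of exon therefore differed between the groups, with Wnt6 and Wnt5a at the top only in Cnot3-cKO libraries. In CPM, without regard to length, Wnt5a was the highest ligand in both groups.

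Summed over all 19 ligands, the level was 34.5 and 39.3 CPM in controls and 61.0 and 61.6 CPM in Cnot3-cKO libraries, a ratio of the means of 1.66. Wnt5a and Wnt6 made up 32.4% and 30.0% of this sum in controls and 61.2% and 62.2% in Cnot3-cKO libraries. The remaining 17 ligands summed to 23.3 and 27.5 CPM in controls and to 23.7 and 23.3 CPM in Cnot3-cKO libraries. The gain in summed ligand level thus lay in Wnt5a and Wnt6. Of the other 12 tested ligands, none passed the test in edgeR or DESeq2, and the largest estimate in size, chosen after values were seen, was that of Wnt11 (-0.90, interval from -2.26 to 0.45), which stood at 0.596 and 0.879 CPM in controls and at 0.441 and 0.349 CPM in Cnot3-cKO libraries. At an unadjusted p under 0.05, 2 ligands were higher (Wnt6 and Wnt5a) and 1 was lower (Wnt9a, log2 fold change -0.73, interval from -1.40 to -0.06). Here and below, the share of all tested genes was not counted at that unadjusted threshold.

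Several ligand genes lie side by side in the genome. Wnt10a starts 6.19 kb beyond the end of Wnt6 on the same strand of chromosome 1, and had 5, 4, 1 and 2 counts in control replicates 1 and 2 and Cnot3-cKO replicates 1 and 2. The gain at Wnt6 was therefore not seen at its neighbour, which was under the floor of 3 counts in the Cnot3-cKO libraries. On chromosome 11, Wnt3a and Wnt9a (16.2 kb apart) and Wnt9b and Wnt3 (24.3 kb apart) did not pass the test. Wnt10b and Wnt1, 11.7 kb apart on chromosome 15, had too few reads to be tested.

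Ligands leave the cell only after PORCN has attached a lipid and WLS has carried them to the surface. Wls stood at 13.2 and 9.48 CPM in controls and at 30.8 and 32.3 CPM in Cnot3-cKO libraries. Both Cnot3-cKO libraries exceeded both controls by more than the controls differed, and the log2 fold change was 1.48 ± 0.17 (SE, 2 libraries per group, edgeR quasi-likelihood test, Benjamini-Hochberg adjusted p = 0.000119), or 2.79-fold. Porcn stood at 3.70 and 3.28 CPM against 4.37 and 3.70 CPM. Its log2 fold change was 0.21, with an interval from -0.37 to 0.78, and it was not called. Per kilobase, Wls rose from 1.29 to 3.59 CPM, while Porcn was at 1.16 and 1.35 CPM.

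Promoters are shown for members that were called together, some higher and some lower. The RefSeq promoter table (GRCm38.p6) had an entry for 45 of the 68 members, with 59 windows that run from 250 bases before to 50 bases after a start, and among the called members it had none for Wnt5a, Fzd2 and Dkk3. The 150 bases before the start are given 5′ to 3′ on the gene's strand for 3 members called higher and 2 called lower. Capitals mark a match to the SOX sequence AACAAT on either strand. In Fzd10 the window lies within annotated exon sequence and is not printed.
Wnt6 (chr1:74771742-74771891, plus strand): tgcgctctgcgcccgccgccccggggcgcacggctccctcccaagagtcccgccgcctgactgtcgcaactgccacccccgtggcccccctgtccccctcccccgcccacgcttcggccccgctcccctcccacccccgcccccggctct
Wls (chr3:159839500-159839649, plus strand): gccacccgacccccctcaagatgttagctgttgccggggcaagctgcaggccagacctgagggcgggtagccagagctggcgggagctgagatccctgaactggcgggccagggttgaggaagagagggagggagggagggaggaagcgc
Lgr6 (chr1:135105277-135105426, minus strand): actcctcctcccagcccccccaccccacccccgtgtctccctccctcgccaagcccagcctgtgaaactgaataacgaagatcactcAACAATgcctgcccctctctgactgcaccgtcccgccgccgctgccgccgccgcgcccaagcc
Rspo1 (chr4:124986280-124986429, plus strand): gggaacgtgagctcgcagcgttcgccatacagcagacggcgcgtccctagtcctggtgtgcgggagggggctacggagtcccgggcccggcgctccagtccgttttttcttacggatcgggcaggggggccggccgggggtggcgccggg
Rspo4 (chr2:151842777-151842926, plus strand): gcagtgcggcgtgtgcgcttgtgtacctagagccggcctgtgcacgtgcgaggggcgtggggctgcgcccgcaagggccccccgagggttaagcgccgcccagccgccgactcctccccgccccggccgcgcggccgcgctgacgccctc

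None of these 5 windows, nor that of Fzd10, held the TCF/LEF sequences CTTTGAT or CTTTGAA on either strand, which occurred in 8.65% of all 32851 windows. Among the 59 member windows 4 held one, in Wnt5b, Wnt11, Dkk1 and Shisa5. The SOX sequence occurred in 10.7% of all windows and in 6 member windows, among them those of Lgr6 and Fzd10, and the GATA sequence AGATAA, also read on both strands, in 11.2% of all windows and in 5 member windows. A match is a description of the letters only. The windows were rich in G and C, at 76.7% for Wnt6, 58.0% for Wls, 67.7% for Lgr6, 69.0% for Rspo1 and 71.0% for Rspo4, against a median of 52.7% over all windows and 66.7% over member windows.

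Cell type markers moved with the genes called higher. Of the 15 listed Sertoli cell genes, 14 were called higher and Rhox5 was not, with a median log2 fold change of 1.82 and a ratio of summed levels of 3.01. Clu was the most abundant per kilobase, at 152 and 145 CPM in controls and 479 and 479 CPM in Cnot3-cKO libraries, and no listed Sertoli cell gene was at 0. Among 5 tested Leydig cell genes there were 4 called higher, and Star passed higher at a log2 fold change of 0.80, the ratio of sums was 2.50, Hsd3b1 was the most abundant, and Insl3 was at 0 in all 4 libraries, with 404 of its 623 annotated exon bases shared with a gene on the same strand (Jak3). Of 9 macrophage genes, 7 were called higher in edgeR, while DESeq2 called 5 higher and passed 7 higher at any fold change. The ratio of macrophage sums was 2.49. Mrc1 was the most abundant, at 96.8 and 55.2 CPM in controls and 218 and 180 CPM in Cnot3-cKO libraries. Macrophage sums differed between the controls more than Sertoli sums did.

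The other somatic lists moved less. Endothelial genes summed to 23.6 and 21.5 CPM in controls and 35.4 and 40.6 CPM in Cnot3-cKO libraries, with 2 of 5 tested genes called higher and Tek the most abundant. Peritubular myoid genes summed to 13.9 and 16.5 CPM against 20.4 and 25.7 CPM, with Acta2 the most abundant. Interstitial fibroblast genes summed to 155 and 142 CPM against 160 and 185 CPM, with Col1a1 the most abundant. In the last 2 lists no gene was called by edgeR or DESeq2 with all libraries and default settings, but 1 myoid gene (Acta2, log2 fold change 0.94) and 2 fibroblast genes (Pdgfra, 0.60, and Dcn, 0.64) passed the adjusted test higher at a fold change under 2, and these were also the only ones with an unadjusted p under 0.05. In edgeR, Acta2 met the call rule with library size only, with scaling to the pan-germ cell genes, thinned to the smallest library and without Cnot3-cKO replicate 1, and did not pass without Cnot3-cKO replicate 2. The fold changes of Wnt6 (4.66), Wnt5a (2.84), Wls (2.79) and Lgr6 (2.14) thus stood beside gains of 3.01, 2.50 and 2.49 in the Sertoli, Leydig and macrophage sums. The part of these cells in the WNT results was not tested.

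**Figure D3:**
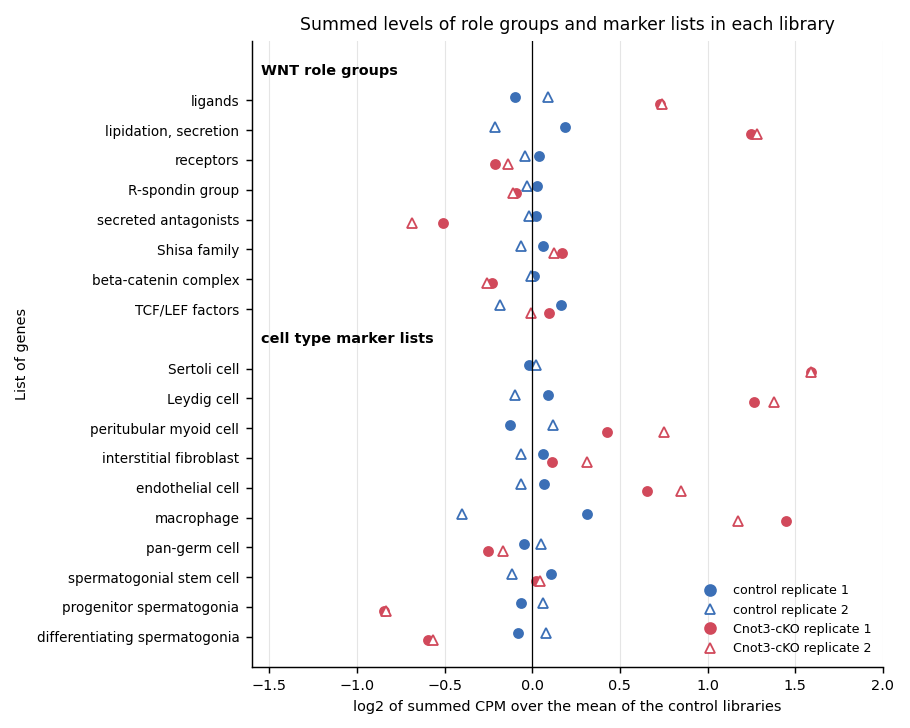
Summed CPM of each WNT role group and each cell type marker list in each library, as log2 of its ratio to the mean of the 2 control libraries. Symbols are as in the plot of levels by library. Ligands and the secretion pair lie to the right of control together with Sertoli, Leydig, macrophage, endothelial and peritubular myoid genes, and secreted antagonists lie to the left together with progenitor and differentiating spermatogonia genes. For stem cell genes both Cnot3-cKO libraries lie between the 2 control libraries.

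Of the 12 receptor genes, all were tested and 2 Frizzleds were called lower. Fzd10 stood at 7.77 and 10.8 CPM in controls and at 3.27 and 3.42 CPM in Cnot3-cKO libraries. The Cnot3-cKO libraries were nearly equal and below both controls, which differed more, and the log2 fold change was -1.47 ± 0.24 (SE, 2 libraries per group, edgeR quasi-likelihood test, Benjamini-Hochberg adjusted p = 0.00126). Fzd2 stood at 5.59 and 5.28 CPM in controls and at 2.43 and 2.34 CPM in Cnot3-cKO libraries. Each pair of libraries was tight and the groups did not overlap, with a log2 fold change of -1.19 ± 0.26 (SE, edgeR quasi-likelihood test, Benjamini-Hochberg adjusted p = 0.00656). The call of Fzd2 depended on the setting. Its Benjamini-Hochberg adjusted p from edgeR's quasi-likelihood test was 0.0146 without Cnot3-cKO replicate 2, 0.0107 with upper quartile scaling and 0.0221 with scaling to the pan-germ cell genes, within a range from 0.000748 to 0.0221 over 13 alternatives, all with the same direction. Fzd10 lies at chr5:128600844-128604093 and Fzd2 at chr11:102604396-102608058, both on the plus strand.

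The receptors with the highest level per kilobase were Fzd3 and the co-receptor Lrp6, both at 17.4 CPM per kilobase in controls. Fzd3 stood at 233 and 212 CPM in controls and at 176 and 204 CPM in Cnot3-cKO libraries. Lrp6 stood at 251 and 224 CPM against 216 and 211 CPM. Both were lower in each Cnot3-cKO library than in either control, but by little, with log2 fold changes of -0.23 (interval from -0.44 to -0.03) and -0.15 (interval from -0.34 to 0.04). Neither passed the adjusted test with all libraries, Fzd3 passed lower in edgeR without control replicate 2, and the sign of the Lrp6 estimate turned with scaling to the pan-germ cell genes (0.06). The other co-receptor, Lrp5, named after its values were seen, stood at 46.6 and 55.1 CPM against 36.6 and 40.6 CPM. Its log2 fold change was -0.40 ± 0.12 (SE, edgeR quasi-likelihood test, Benjamini-Hochberg adjusted p = 0.0379), and it was not called. Summed over the receptors the level was 594 and 561 CPM in controls and 499 and 525 CPM in Cnot3-cKO libraries, a log2 ratio of -0.17 that became 0.03 with scaling to the pan-germ cell genes.

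Estimates above control also occurred among receptors. Fzd5, named after its values were seen, stood at 9.86 and 12.8 CPM in controls and at 19.2 and 17.0 CPM in Cnot3-cKO libraries, with a log2 fold change of 0.68 ± 0.18 (SE, edgeR quasi-likelihood test, Benjamini-Hochberg adjusted p = 0.0195). Of the annotated exon bases of Fzd5, 1233 are shared with a gene on the opposite strand (Gm38058). Fzd1 stood at 1.59 and 2.52 CPM against 3.49 and 4.40 CPM, with a log2 fold change of 0.94 and an interval from 0.25 to 1.64. In both genes the groups did not overlap, and neither was called, while Fzd5 passed at a fold change under 2 in edgeR with scaling to the pan-germ cell genes, without an expression filter, with the replicate block and without control replicate 2. None of the receptors was called higher by edgeR or DESeq2, and 3 were higher and 4 lower at an unadjusted p under 0.05.

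R-spondins and the proteins they act through went both ways. Rspo1, the R-spondin required for ovary determination, stood at 3.58 and 5.09 CPM in controls and at 1.90 and 1.26 CPM in Cnot3-cKO libraries. The groups did not overlap although both varied, and the log2 fold change was -1.47 ± 0.33 (SE, 2 libraries per group, edgeR quasi-likelihood test, Benjamini-Hochberg adjusted p = 0.00781). Rspo4 stood at 14.1 and 13.7 CPM in controls and at 7.42 and 5.20 CPM in Cnot3-cKO libraries. Its controls were nearly equal and its Cnot3-cKO libraries were lower but differed from each other, with a log2 fold change of -1.15 ± 0.21 (SE, edgeR quasi-likelihood test, Benjamini-Hochberg adjusted p = 0.00238). Both genes lie on the plus strand, at chr4:124986430-125009099 and chr2:151842927-151874668, and share no exon bases with another gene.

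Both calls depended on single libraries and on the scaling. Without Cnot3-cKO replicate 2, the log2 fold change of Rspo4 was -0.91 and its Benjamini-Hochberg adjusted p from edgeR's quasi-likelihood test was 0.0104, within a range from 2.52e-06 to 0.0104 over 13 alternatives. With scaling to the pan-germ cell genes it was -0.93, under the fold limit. For Rspo1 the Benjamini-Hochberg adjusted p from the same edgeR test was 0.0285 without control replicate 2 and 0.0214 without Cnot3-cKO replicate 2, and it was 0.0122 with upper quartile scaling, 0.0104 with library size only and 0.0173 with scaling to the pan-germ cell genes, within a range from 6.41e-05 to 0.0285. The direction of both genes was the same in all 13 alternatives run.

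Lgr6, one of the R-spondin receptors, was called higher. It stood at 8.76 and 8.46 CPM in controls and at 17.1 and 19.8 CPM in Cnot3-cKO libraries, so that both Cnot3-cKO libraries were well above the controls. The log2 fold change was 1.10 ± 0.17 (SE, 2 libraries per group, edgeR quasi-likelihood test, Benjamini-Hochberg adjusted p = 0.000891), and without Cnot3-cKO replicate 2 it was 0.98, just under the fold limit. Lgr4, the receptor with the highest level of this group per kilobase (10.6 CPM in controls, 9.03 CPM in the Cnot3-cKO group), stood at 60.5 and 63.7 CPM against 50.6 and 55.7 CPM, with a log2 fold change of -0.23 and an interval from -0.46 to 0.01. Lgr5 was near the bottom of the members, at 0.894 and 0.618 CPM against 0.839 and 1.68 CPM, and its groups overlapped.

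Rspo2 had a level per kilobase in controls (5.54 CPM) close to that of Rspo4 (5.87 CPM), but stood at 32.0 and 24.7 CPM against 36.5 and 31.9 CPM, with overlapping groups and a log2 fold change of 0.27 (interval from -0.05 to 0.60). After the loss at Rspo4 the Cnot3-cKO levels were 6.69 CPM per kilobase for Rspo2 and 2.66 for Rspo4. The ligases that remove Frizzled differed in level and estimate. Znrf3 stood at 53.7 and 50.1 CPM against 43.4 and 40.1 CPM, with a log2 fold change of -0.32 (interval from -0.56 to -0.07). Rnf43 stood at 0.596 and 1.05 CPM against 1.94 and 2.48 CPM, with a log2 fold change of 1.43 (interval from 0.49 to 2.36). For both ligases the groups did not overlap, in opposite directions, and neither was called. Summed over the group the level was 174 and 168 CPM against 160 and 158 CPM, a log2 ratio of -0.10 that became 0.11 with scaling to the pan-germ cell genes.

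Among secreted antagonists, 8 of 10 were tested and Dkk3 was called lower. Dkk3, a divergent Dickkopf, stood at 30.7 and 28.9 CPM in controls and at 10.1 and 10.1 CPM in Cnot3-cKO libraries. The libraries of each group were close to each other and the groups were far apart, with a log2 fold change of -1.56 ± 0.15 (SE, 2 libraries per group, edgeR quasi-likelihood test, Benjamini-Hochberg adjusted p = 2.78e-05), the lowest of all members tested. Per kilobase its level went from 8.88 to 3.01 CPM. It lies at chr7:112116017-112159057 on the minus strand and shares no exon bases with another gene.

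The Frizzled-related proteins SFRP1 and SFRP2 bind WNT ligands outside the cell. Sfrp2 had the highest level per kilobase of this group (10.9 CPM in controls, 8.82 CPM in the Cnot3-cKO group) and stood at 22.3 and 24.8 CPM against 21.3 and 16.7 CPM, with a log2 fold change of -0.31 and an interval from -0.66 to 0.03. Sfrp1 stood at 27.3 and 23.5 CPM against 18.1 and 14.8 CPM, with a log2 fold change of -0.63 ± 0.16 (SE, edgeR quasi-likelihood test, Benjamini-Hochberg adjusted p = 0.0146). Both Cnot3-cKO libraries were below both controls for each gene, and neither was called, while Sfrp1 passed at a fold change under 2 in DESeq2 and in edgeR without an expression filter, with the replicate block, without control replicate 2 and without Cnot3-cKO replicate 1. Sfrp4 and Dkkl1, both at low levels, lay in the other direction.

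Dkkl1, a Dickkopf-like protein best known from spermatocytes and the acrosome, stood at 1.12 and 1.85 CPM in controls and at 3.66 and 3.56 CPM in Cnot3-cKO libraries. Its log2 fold change was 1.28 ± 0.34 (SE, edgeR quasi-likelihood test, Benjamini-Hochberg adjusted p = 0.0187). Sfrp4 stood at 1.61 and 1.35 CPM against 2.87 and 3.28 CPM, with a log2 fold change of 1.05 and an interval from 0.34 to 1.76. For both genes each Cnot3-cKO library exceeded each control, and neither was called in the edgeR fit of all libraries. The call of Dkkl1 depended on the setting, since it was called higher with scaling to the pan-germ cell genes, without an expression filter, with the replicate block and without control replicate 2. Wif1 stood at 1.61 and 1.43 CPM against 1.41 and 1.68 CPM, so that the groups overlapped. Summed over the antagonists, the level was 85.9 and 83.5 CPM in controls and 59.5 and 52.7 CPM in Cnot3-cKO libraries, a ratio of 0.662, and without Dkk3 it was 55.2 and 54.6 CPM against 49.4 and 42.6 CPM, a ratio of 0.838.

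Summed markers of progenitor and differentiating spermatogonia were lower, as were the genes called lower, while stem cell markers went both ways. Of 6 progenitor spermatogonia genes 4 were called lower (Neurog3, Sox3, Rarg and Nanos3, named after their values were seen), and the list summed to 139 and 152 CPM in controls and 81.0 and 81.6 CPM in Cnot3-cKO libraries, with Upp1 the most abundant per kilobase. Of 6 genes of differentiating spermatogonia 2 were called lower (Kit and Stra8) and 2 more passed lower at a smaller fold change (Uchl1, -0.80, and Dnmt3b, -0.66), and the list summed to 1249 and 1393 CPM against 874 and 893 CPM, with Uchl1 the most abundant. The ratios of sums were 0.559 and 0.669. Of 10 stem cell genes 5 passed the test higher, Id4 (1.04) and Eomes (1.39) with a call and Gfra1 (0.90), Bcl6b (0.65) and Etv5 (0.54) at a fold change under 2, and 1 passed lower, Zbtb16 (-0.82), the most abundant. The median log2 fold change of this list was 0.59, while its sums were 932 and 801 CPM against 880 and 894 CPM, to which Zbtb16 gave 436 and 364 CPM against 243 and 212 CPM. The 12 pan-germ cell genes had a median of -0.18, with none called in edgeR or DESeq2 with all libraries and default settings. At a fold change under 2, 1 of them passed the adjusted test higher (Stk31, 0.33) and 3 lower (Tex15, -0.57, Sohlh2, -0.57, and Piwil2, -0.44), and 1 was higher and 6 lower at an unadjusted p under 0.05. No gene of these 4 lists was at 0. The lower levels of Dkk3, Fzd10, Fzd2, Rspo1 and Rspo4 stood beside these values, and the part of spermatogonial stage in them was not tested.

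**Figure D4:**
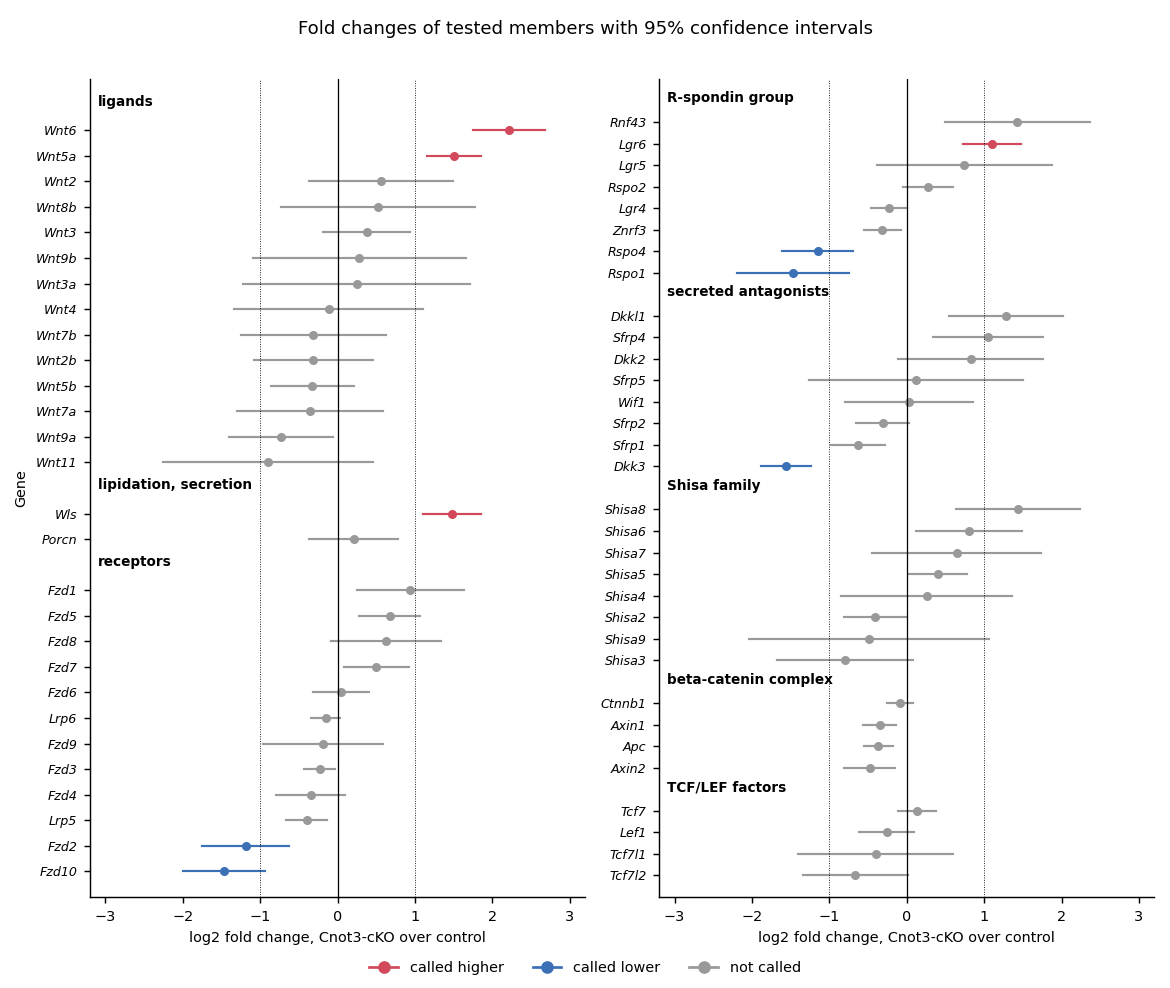
Log2 fold change, Cnot3-cKO over control, of each of the 60 tested members with its 95% confidence interval from edgeR's fit, grouped by role and ordered within each group. Colour marks the 4 members called higher and the 5 called lower, and dotted lines mark a fold change of 2. The intervals are narrow for abundant genes such as Ctnnb1 (from -0.26 to 0.09) and wide for genes with few reads such as Wnt11 (from -2.26 to 0.45).

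The Shisa proteins include members that hold Frizzled back inside the cell, and SHISA6 to SHISA9 are also known as partners of glutamate receptors in neurons. All 8 listed genes were tested and none was called in edgeR or DESeq2 with all libraries and default settings, with 3 higher and 1 lower at an unadjusted p under 0.05. Shisa6 stood at 1.84 and 1.62 CPM in controls and at 2.91 and 3.11 CPM in Cnot3-cKO libraries. Both Cnot3-cKO libraries were above both controls, with a log2 fold change of 0.80 ± 0.32 (SE, edgeR quasi-likelihood test, Benjamini-Hochberg adjusted p = 0.0947). Shisa8 had the largest estimate of the family. It stood at 0.968 and 1.35 CPM against 2.47 and 3.81 CPM, with a log2 fold change of 1.44 ± 0.37 (SE, edgeR quasi-likelihood test, Benjamini-Hochberg adjusted p = 0.0158). Shisa8 was called higher in edgeR with scaling to the pan-germ cell genes, without an expression filter, with the mean count filter, with the replicate block, without control replicate 2 and without Cnot3-cKO replicate 1, and Shisa3 was called lower without Cnot3-cKO replicate 2. Per kilobase, Shisa5 (3.53 CPM in controls, 4.67 CPM in the Cnot3-cKO group) and Shisa2 (3.29 and 2.48 CPM) were the most abundant, with log2 fold changes of 0.40 (interval from 0.02 to 0.78) and -0.41 (interval from -0.81 to -0.00069).

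Of the core of the pathway, Ctnnb1, Axin1, Apc and Tcf7 stood at 10 CPM per kilobase or more in controls. Their log2 fold changes ran from -0.37 (Apc) to 0.13 (Tcf7). Axin2 and Lef1 stood at 1 to under 10 CPM per kilobase, and Tcf7l1 and Tcf7l2 under 1. Ctnnb1, which encodes beta-catenin, had the highest level of all members per kilobase (99.0 CPM in controls, 93.2 CPM in the Cnot3-cKO group). It stood at 490 and 537 CPM in controls and at 492 and 476 CPM in Cnot3-cKO libraries. The groups overlapped, and the log2 fold change of -0.09 had an interval from -0.26 to 0.09, with the sign turning under scaling to the pan-germ cell genes (0.13). Of the annotated exon bases of Ctnnb1, 759 are shared with a gene on the opposite strand and 23 with one on the same strand.

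The scaffolds of the destruction complex had estimates below control. Apc stood at 597 and 510 CPM against 426 and 433 CPM, with a log2 fold change of -0.37 ± 0.09 (SE, edgeR quasi-likelihood test, Benjamini-Hochberg adjusted p = 0.0106). Axin1 stood at 144 and 170 CPM against 126 and 121 CPM, with a log2 fold change of -0.35 ± 0.10 (SE, edgeR quasi-likelihood test, Benjamini-Hochberg adjusted p = 0.0239). Axin2, both a scaffold and a widely used target of beta-catenin, stood at 24.5 and 27.6 CPM against 20.4 and 17.0 CPM, with a log2 fold change of -0.48 ± 0.15 (SE, edgeR quasi-likelihood test, Benjamini-Hochberg adjusted p = 0.0406). Its annotated exons share 209 bases with a gene on the opposite strand. For all 3 both Cnot3-cKO libraries lay below both controls, a separation whose share over all tested genes was not counted. None of the 3 passed the adjusted threshold in the edgeR fit of all libraries with default settings. In other edgeR settings Apc passed with RLE scaling, Apc and Axin1 without an expression filter and with the replicate block, all 3 without control replicate 1, and Apc without control replicate 2. DESeq2 passed 2 genes of this group of 4 at any fold change (Apc and Axin1) and called none, and 3 were lower and none higher at an unadjusted p under 0.05. Without Ctnnb1 the group summed to 766 and 707 CPM in controls and to 572 CPM in each Cnot3-cKO library, a ratio of 0.776. For the sum of all 4 the log2 ratio was -0.24, and scaling to the pan-germ cell genes moved it to -0.03.

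Of the TCF/LEF factors, Tcf7 was the most abundant per kilobase, at 40.9 CPM in controls against 44.7 CPM in the Cnot3-cKO group. It stood at 120 and 95.1 CPM in controls and at 122 and 113 CPM in Cnot3-cKO libraries. The groups overlapped, and the log2 fold change of 0.13 (interval from -0.11 to 0.37) became -0.04 without control replicate 2. Lef1 stood at 15.7 and 15.2 CPM against 13.5 and 12.3 CPM, with a log2 fold change of -0.26 (interval from -0.62 to 0.10). Of its annotated exon bases, 1208 are shared with a gene on the opposite strand.

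Tcf7l2 depended on a control library. It stood at 11.2 CPM in control replicate 1 and at 5.18 CPM in control replicate 2, and at 5.43 and 4.92 CPM in the Cnot3-cKO libraries. Control replicate 1 thus stood apart from the other 3 libraries. The log2 fold change was -0.66 with an interval from -1.34 to 0.02, and without control replicate 1 it was -0.02. Without control replicate 2 it was -1.13 and passed the test (edgeR quasi-likelihood test, Benjamini-Hochberg adjusted p = 0.000317, within a range from 0.000317 to 0.980 over 13 alternatives). None of the 4 factors was called by edgeR or DESeq2 with all libraries, and none had an unadjusted p under 0.05.

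Other genes of the pathway were followed in 4 lists that hold 72 genes that are not members, and 8 members among the targets of beta-catenin. Of the 72, 68 were tested, 3 were called higher and 1 lower, and at any fold change 4 passed higher and 9 lower. Of all tested genes, 4.03% were called higher and 0.735% lower, and 6.21% and 4.7% passed at any fold change. DESeq2 passed 4 of the listed genes higher and 14 lower at any fold change. In edgeR, 13 of them were higher and 27 lower at an unadjusted p under 0.05. For these DESeq2 and unadjusted counts the share of all tested genes was not counted. The median over the 68 was -0.17 on the log2 scale. Among 18 tested secreted or surface modulators, Cthrc1, a secreted protein that steers WNT towards planar polarity signalling, was called lower. It stood at 6.78 and 5.54 CPM in controls and at 2.43 and 1.5 CPM in Cnot3-cKO libraries, with a log2 fold change of -1.66 ± 0.30 (SE, edgeR quasi-likelihood test, Benjamini-Hochberg adjusted p = 0.00207). A further 4 modulators passed lower at a smaller fold change, namely the membrane protein Reck (-0.92), the receptors Ryk (-0.49) and Ptk7 (-0.52), and Tpbg (-0.62), these named after their values were seen. The median of the list was -0.50, and no gene of it passed higher in the edgeR fit of all libraries. In that fit 3 were higher and 8 lower at an unadjusted p under 0.05. DESeq2 passed none higher and 6 lower at any fold change.

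Among 27 genes of cytoplasmic relay and planar polarity, the formin Daam2, a partner of Dishevelled, was called higher. It stood at 48.7 and 31.3 CPM in controls and at 108 and 98.7 CPM in Cnot3-cKO libraries, with a log2 fold change of 1.37 ± 0.16 (SE, edgeR quasi-likelihood test, Benjamini-Hochberg adjusted p = 0.000145). In edgeR with all libraries the remaining 26 did not pass, and the median was -0.08. Of the 27, 5 were higher and 8 lower at an unadjusted p under 0.05, and DESeq2 called 1 higher and none lower, and passed 1 higher and 1 lower at any fold change. Of 14 nuclear cofactors, Tle2 passed higher at 0.98 and Bcl9 (-0.81), Crebbp (-0.55), Tle4 (-0.43) and Smarca4 (-0.36) passed lower, all under the fold limit and named after their values were seen. The median of the nuclear cofactors was -0.38. DESeq2 also called none of the 14 and passed 1 higher and 7 lower at any fold change, and 1 was higher and 10 lower at an unadjusted p under 0.05.

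Of 21 genes known as targets of beta-catenin in various tissues, 19 were tested and 2 were called higher, Sox9 and Fgf9, which are also known for their part in Sertoli cell formation. Sox9 stood at 3.80 and 3.64 CPM in controls and at 18.8 and 16.1 CPM in Cnot3-cKO libraries, with a log2 fold change of 2.23 ± 0.20 (SE, edgeR quasi-likelihood test, Benjamini-Hochberg adjusted p = 1.57e-05). Fgf9 stood at 2.53 and 2.19 CPM against 6.18 and 6.08 CPM, with a log2 fold change of 1.38 ± 0.26 (SE, edgeR quasi-likelihood test, Benjamini-Hochberg adjusted p = 0.00255). For both, each Cnot3-cKO library exceeded each control. Sox9 is also in the Sertoli cell list, of which 14 genes were called higher, and the part of Sertoli cells in its level was not tested. Ccnd1 (-0.26, interval from -0.49 to -0.02), Nkd1 (-0.57, interval from -0.97 to -0.17) and Sp5 (1.36, interval from 0.25 to 2.47), named after their values were seen, did not pass the adjusted test, and no target passed lower in edgeR or DESeq2 with all libraries and default settings (Axin2 did in edgeR without control replicate 1), with 5 higher and 5 lower at an unadjusted p under 0.05. The median over the targets was 0.17. Of the 21 targets, 8 are members described above and 3 are in another of these lists, and over the 12 tested targets that are not members the median was 0.24, with 4 higher and 3 lower at an unadjusted p under 0.05.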

How the data were processed

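The values were the authors' read counts per gene, not normalized, for 4 stranded total RNA libraries. The authors aligned the reads to mm10 with STAR and counted them with featureCounts on GENCODE M24, and the strand and multi-mapping settings are not stated. Here the counts were fitted across all genes with edgeR 4.0.16 in R 4.3.3 (TMM scaling, default expression filter, quasi-likelihood F test, Benjamini-Hochberg adjustment over all tested genes), without covariates. Standard errors and 95% intervals come from this fit, and CPM uses TMM-scaled totals. Intervals and floors cover the counted reads, which are not independent molecules. Exon lengths and positions came from GENCODE M21 on GRCm38, and promoters from RefSeq. Members and lists were chosen with earlier results of these data known. Genes named were Cnot3, Wnt6, Axin2, Shisa6, Ctnnb1, Rspo1, every member past the test, the 2 most abundant members and the largest change in each role, called genes of other lists and the most abundant marker of each list. Further genes described were picked after their values were seen. The fit was tested on simulated data. DESeq2 1.42.0, other scalings, filters and thresholds, thinning to the smallest library, a replicate block and leaving out each library were alternatives. Figures were drawn with matplotlib 3.10.9 in Python 3.11.15.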

Additional observations from a re-analysis of the deposited data

How the results depend on the processing

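Of the called members, Wnt6, Wnt5a, Wls, Lgr6, Dkk3 and Fzd10 passed the test in all 13 alternatives run, and all 9 kept their direction. Shares of all tested genes were not counted at an adjusted p under 0.05, in a test against a fold change of 2, or at any fold change in the alternatives. Members called higher numbered 4, and 8 at an adjusted p under 0.05 and 1 (Wnt6) in a test against a fold change of 2. Leaving out single libraries gave 3 to 6. At any fold change 4 passed higher, and 7 with scaling to the pan-germ cell genes, without an expression filter and with the replicate block, and 4 to 7 with single libraries left out. Members called lower numbered 5, and 3 with upper quartile scaling, 2 with scaling to the pan-germ cell genes, 0 in the edgeR test against a fold change of 2 (3 at an unadjusted p under 0.05, and 5 called by DESeq2) and 3 to 5 with single libraries left out. At any fold change 5 passed lower, and 3 with upper quartile scaling and with scaling to the pan-germ cell genes, 8 without an expression filter, in DESeq2 and with the replicate block, and 3 to 9 with single libraries left out. Scaling to the pan-germ cell genes moved the median log2 fold change of all tested genes from 0.01 to 0.22 and their split from 965 higher and 176 lower to 1433 and 76, and turned the sign of Ctnnb1 (0.127), Lrp6 (0.0569) and Col1a1 (0.0533). Tcf7 ranged from -0.0385 to 0.288 with single libraries left out. Where a call was lost, the cause was not tested. With a library left out, the lone library of a group was assumed to vary like the other group. The labels do not state whether the replicate numbers pair the libraries. Deviations of the libraries numbered 1 correlated at 0.0822 over 15519 genes, which cannot decide this, since small shared effects would give a weak correlation. Intervals of members under 1 CPM were among the widest, and counting depth and spread between libraries were not separated.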
